A study of Mus musculus with 70 samples.

Results

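Metallothioneins are small, cysteine-rich proteins that hold zinc and copper ions in clusters of thiolate bonds. The mRNA of 3 metallothionein genes, Mt1, Mt2 and Mt3, was followed in mouse hippocampus across feeding, genotype and time of sacrifice. These rows were chosen by gene name, with earlier results of these data known. They are 3 of the 14260 genes listed in the deposited expression table. Mt1 and Mt2 are the widely expressed, inducible members. Mt3, first described as growth inhibitory factor, is the form found mainly in brain.

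In brain, Mt1 and Mt2 are known mostly from astrocytes, where the zinc sensor MTF1 raises their transcription when free zinc rises and glucocorticoid hormone also induces them. Mt3 is expressed in neurons and astrocytes and is less inducible by metals. The proteins buffer zinc and copper, both of which bind amyloid-beta, and scavenge oxidants.

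The animals were APP23 transgenics (TG), line B6.Cg-Tg(Thy1-APP)3Somm/J, which carry human APP driven by the neuronal Thy1 promoter, and non-transgenic (NTG) littermates. Time-restricted feeding (TRF) offered food for 6 h a day, the window running between ZT15 and ZT21, and ad libitum feeding (ALF) at all times, where ZT is Zeitgeber time in hours. Per the labels' protocols all lived singly, with light beginning at ZT0 and darkness at ZT12. TRF began when animals were aged between 6 and 9 months, and tissue was taken between 10 and 13 months. There were 18 TG mice on TRF, 19 TG on ALF, 16 NTG on TRF and 16 NTG on ALF, and 1 hippocampus of each mouse was taken at ZT0, ZT6, ZT12 or ZT18. Over all groups 25 animals belong to ZT0, 11 to ZT6, 23 to ZT12 and 10 to ZT18, but at ZT6 and ZT18 the NTG groups held only 1 or 2 animals each. The labels give no sex for single animals, although the design balanced it, and nothing says whether RNA was extracted in batches.

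Sequencing of poly-A RNA gave pairs of 150-base reads, with 27.9 to 47.1 M reads per library over the listed genes (median 37.2 M) and normalized totals of 35.0 to 42.4 M. At such depth counting error is small beside the differences between animals. The genotype labels were checked with Thy1, whose promoter the transgene carries: it averaged 136694 ± 17326 normalized counts in TG (SD, n = 37) and 24712 ± 2651 in NTG (SD, n = 32), with no overlap. App, the mouse gene, averaged 55680 ± 6035 in TG and 56189 ± 4983 in NTG. Markers of neurons (10 of 10 listed genes), astrocytes (16 of 16) and hippocampal subfields (10 of 10) were present with no value at 0. In bulk tissue, fewer cells of a type and less RNA per cell cannot be told apart.

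The 3 genes lie in a cluster on the plus strand of chromosome 8 in the order Mt3, Mt2, Mt1, and each has 3 exons. In GRCm38 (GENCODE M21) the main transcript of Mt3 spans chr8:94152607-94154146, that of Mt2 chr8:94172664-94173568 and that of Mt1 chr8:94179082-94180327. Their spliced lengths are 536, 511 and 549 bases. The coding sequences are shown because they carry the feature that defines the family and show how far reads can tell the members apart. They come from the GENCODE transcripts, 5′ to 3′, and the capitals mark in-frame cysteine codons (TGC or TGT).

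Mt1 coding sequence: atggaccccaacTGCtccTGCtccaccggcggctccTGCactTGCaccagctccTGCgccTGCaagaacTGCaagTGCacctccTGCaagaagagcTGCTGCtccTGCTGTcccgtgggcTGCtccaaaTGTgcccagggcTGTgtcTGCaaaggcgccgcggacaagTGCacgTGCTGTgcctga

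Mt2 coding sequence: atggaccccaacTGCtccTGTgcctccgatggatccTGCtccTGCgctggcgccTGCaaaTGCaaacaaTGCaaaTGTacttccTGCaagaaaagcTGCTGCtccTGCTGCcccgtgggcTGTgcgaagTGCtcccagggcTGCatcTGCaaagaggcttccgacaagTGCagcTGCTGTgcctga

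Mt3 coding sequence: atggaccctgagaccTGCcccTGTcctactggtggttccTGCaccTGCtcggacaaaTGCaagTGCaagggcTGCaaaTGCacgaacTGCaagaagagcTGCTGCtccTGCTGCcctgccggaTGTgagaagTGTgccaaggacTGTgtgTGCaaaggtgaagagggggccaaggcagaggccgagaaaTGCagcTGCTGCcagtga

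Each coding sequence holds 20 cysteine codons, 16 of them TGC and 4 TGT. They make up 32.8% of the 61 codons of Mt1 and of Mt2 and 29.4% of the 68 codons of Mt3. Between Mt1 and Mt2, which have coding sequences of equal length, 148 of 186 bases are identical (79.6%). No stretch of 50 bases of any of the 3 main transcripts occurs in a transcript of another GENCODE gene, so paired reads of 150 bases can be assigned to one member.

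The 250 bases before the RefSeq start of Mt2 (chr8:94172368-94172617) and of Mt1 (chr8:94178839-94179088), both plus strand in GRCm38.p6, are shown because Mt1 and Mt2 were the members called higher at each later time. Capitals mark matches to the core of the metal response element, the site that MTF1 binds, searched as TGCACNC and TGCGCNC on both strands.

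Mt2 upstream: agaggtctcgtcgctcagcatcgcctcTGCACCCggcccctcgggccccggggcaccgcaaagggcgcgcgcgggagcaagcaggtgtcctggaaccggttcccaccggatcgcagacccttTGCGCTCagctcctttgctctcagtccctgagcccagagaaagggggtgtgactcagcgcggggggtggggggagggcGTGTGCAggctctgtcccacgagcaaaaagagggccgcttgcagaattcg

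Mt1 upstream: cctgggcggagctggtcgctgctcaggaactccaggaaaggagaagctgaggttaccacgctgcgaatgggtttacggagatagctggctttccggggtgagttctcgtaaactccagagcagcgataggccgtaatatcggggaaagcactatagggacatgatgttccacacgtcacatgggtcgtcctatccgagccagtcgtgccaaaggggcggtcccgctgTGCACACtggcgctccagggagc

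The Mt2 window holds 3 matches, of which the one from 50 to 44 bases before the start lies on the minus strand. The Mt1 window holds 1 match, from 23 to 17 bases before the start, and the window before Mt3 holds 0. Of 32851 RefSeq windows of the same length, 21.4% hold at least 1 match and 1.26% at least 3. The antioxidant response element, searched as TGACNNNGC, has 1 match before Mt2, and 10.2% of windows hold it. The E-box CACGTG (6.02% of windows) had no match before any of the 3. The glucocorticoid response element had none either, but in the form searched only 0.01% of windows hold it. Both strands were searched for each motif, no marked match overlaps another, and bases after the annotated start were not searched. For Mt2 and Mt1 the RefSeq start differs from the GENCODE start. The Mt2 window ends at 94172617, before the GENCODE start at 94172664, and the Mt1 window at 94179088, after the one at 94179082. The counts are those of these windows and do not give the number of elements in the whole promoters.

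All 3 genes were abundant. Mt3 averaged 9042 ± 2467 normalized counts, Mt1 8434 ± 2738 and Mt2 4629 ± 1839 (SD, n = 69 animals each). Per kilobase of the main transcript, Mt3 stood at 16869 ± 4602, Mt1 at 15362 ± 4987 and Mt2 at 9059 ± 3599 normalized counts (SD, n = 69). Per kilobase of all annotated exonic bases the means were 8482 for Mt3, 7873 for Mt2 and 6769 for Mt1, so the order of Mt1 and Mt2 depends on the length used (1246 exonic bases in all for Mt1, 588 for Mt2). By that measure Mt2 ranked 141st and Mt1 190th of 13725 genes with a length. The 1246 bases of Mt1 are as many as its main transcript spans in the genome, introns included, which limits that measure for Mt1.

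Before the differences, 4 animals need naming. The mean log2 level of the protein-coding genes with under 700 exonic bases (the short-gene level, members left out) had a median of 9.60 over all animals. It was 8.08 in NTG_ALF_107 and 8.31 in NTG_ALF_1, both NTG on ALF, and 8.64 in TG_ALF_5 and 8.74 in TG_ALF_16, both TG on ALF. All 4 were killed at ZT0, and the next lowest animal stood at 8.96. Their libraries were also among the 5 with the lowest median correlation to the others, together with TG_TRF_104 (TG on TRF, ZT12). Each member's comparison of a later time with ZT0 over all groups is also given without these 5 animals and with the short-gene level as a covariate.

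Time of sacrifice was where the metallothioneins differed. Mt1 had 1834, 6701 and 13404 normalized counts at ZT0 (lowest, median and highest of 25), 7395, 9818 and 15596 at ZT6 (of 11), 5115, 9159 and 13386 at ZT12 (of 23), and 7878, 10123 and 13452 at ZT18 (of 10). Mt2 had 1114, 3074 and 7907 at ZT0, 4367, 5500 and 9957 at ZT6, 3102, 5300 and 9159 at ZT12, and 3418, 4125 and 6204 at ZT18. Mt3 had 2368, 8226 and 12784 at ZT0, 7395, 9683 and 14496 at ZT6, 6082, 8849 and 12699 at ZT12, and 8508, 10294 and 13477 at ZT18. The ranges of the 4 times overlapped for every member. For Mt2, every one of the 11, 23 and 10 animals at ZT6, ZT12 and ZT18 nevertheless stood above the ZT0 median. For Mt1 that held for 11 of 11, 22 of 23 and 10 of 10, and for Mt3 for 8 of 11, 14 of 23 and 10 of 10.

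**Figure D1:**
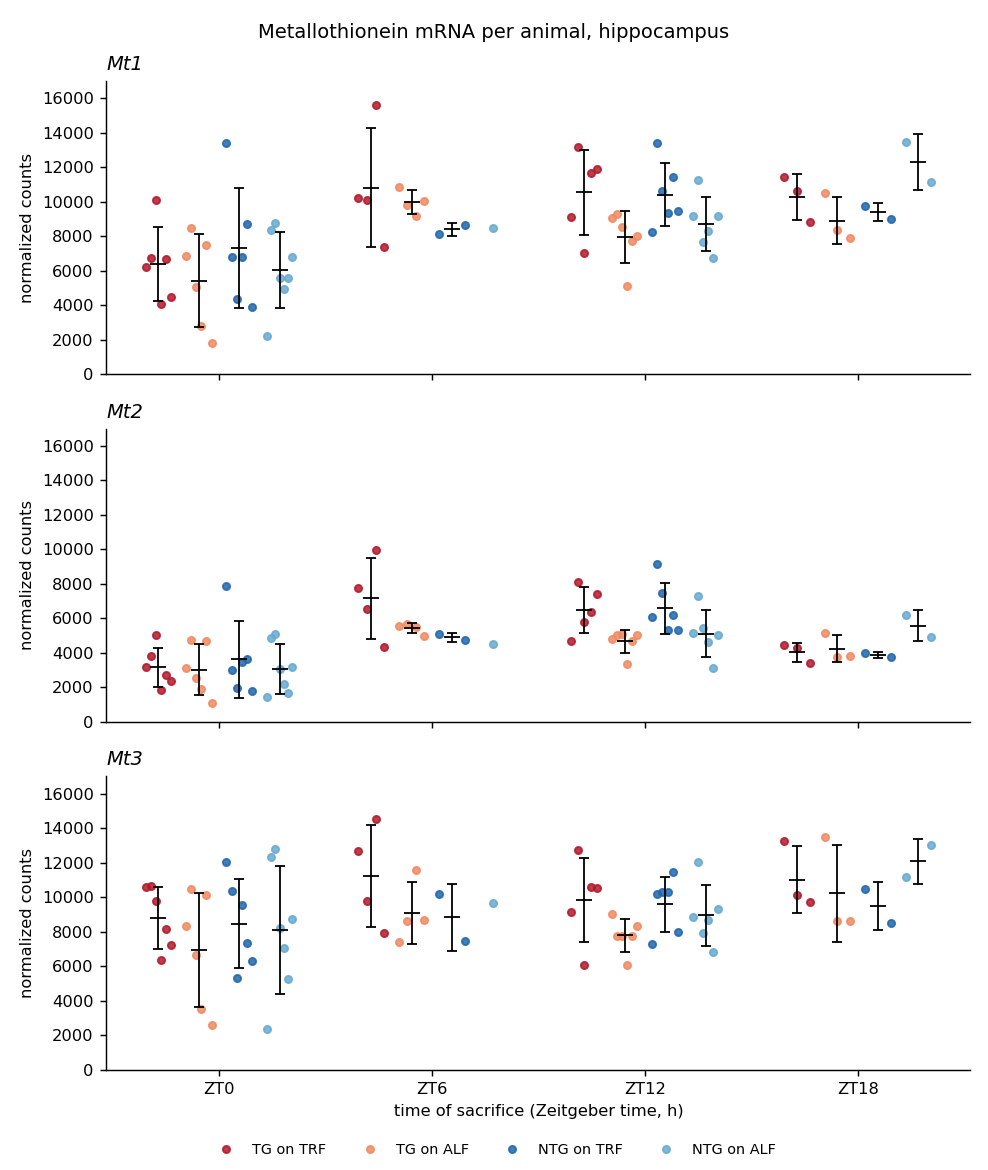
Normalized counts of Mt1, Mt2 and Mt3 (y axis) by time of sacrifice (x axis) for TG on TRF, TG on ALF, NTG on TRF and NTG on ALF, left to right at each time. Points are animals and black bars are mean ± SD where a set has at least 2 animals. The lowest values stand at ZT0, where Mt1 ran from 1834 to 13404, and the 4 groups overlap at that time.

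By limma's moderated F test over the 4 times, adjusted over all genes, all 3 members passed the threshold of 0.05 (adjusted p = 1.82e-05 for Mt1, 9.58e-07 for Mt2 and 0.0391 for Mt3), in a comparison where 35.6% of all genes did. Mt2 was 220th and Mt1 454th of 14260 genes by p, and Mt3 4609th. Leaving out any 1 of 11 animals ended the Mt3 call, at an adjusted p of up to 0.0746. These were TG_TRF_7, TG_TRF_102, TG_TRF_330, TG_ALF_5, TG_ALF_16, TG_ALF_329, NTG_TRF_8, NTG_TRF_32, NTG_ALF_107, NTG_ALF_325 and NTG_ALF_328. Mt3 was also lost without the 5 animals named above (adjusted p = 0.152) and with the short-gene level as a covariate (adjusted p = 0.753), while Mt1 (0.00022 and 0.000302) and Mt2 (3.22e-05 and 3.33e-08) were called in both.

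At ZT12, lights off, Mt1 and Mt2 were higher than at ZT0. Mt2 averaged 5679 ± 1446 normalized counts at ZT12 and 3215 ± 1536 at ZT0 (SD, n = 23 and 25), a log2 fold change of 0.93 ± 0.14 (SE), or 1.90-fold (95% interval 1.57 to 2.31; limma, adjusted p = 7.65e-07). Mt1 averaged 9360 ± 2054 at ZT12 and 6287 ± 2578 at ZT0, a log2 fold change of 0.67 ± 0.13, or 1.60-fold (1.33 to 1.91; limma, adjusted p = 7.78e-05). Mt3 averaged 8991 ± 1795 at ZT12 and 8071 ± 2881 at ZT0 and did not pass (log2 0.25 ± 0.13; limma, adjusted p = 0.132). Higher expression was thus called for 2 of 3 members, against 14.4% of all genes called higher and 27.9% called in either direction. Without the 5 animals the log2 fold changes were 0.75 for Mt2 and 0.47 for Mt1, both called by limma (adjusted p = 3.08e-05 and 0.00133), and 0.018 for Mt3. With the short-gene level as a covariate they were 0.69, 0.47 and 0.0049, with Mt2 and Mt1 again called.

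The ZT12 against ZT0 values had the same sign in each of the 4 groups. Mt2 averaged 6478 ± 1352 at ZT12 and 3164 ± 1135 at ZT0 in TG on TRF (n = 5 and 6), and 4667 ± 649 and 3018 ± 1484 in TG on ALF (n = 6 and 6). It averaged 6593 ± 1485 at ZT12 and 3628 ± 2235 at ZT0 in NTG on TRF (n = 6 and 6), and 5112 ± 1361 and 3075 ± 1460 in NTG on ALF (n = 6 and 7). The log2 fold changes of Mt2 were 1.08 ± 0.30, 0.79 ± 0.29, 1.02 ± 0.29 and 0.84 ± 0.28 in these groups. Only the first was called over all genes by limma (adjusted p = 0.0297, 0.132, 0.0927 and 0.090), where 3.55%, 2.22%, 0.596% and 2.17% of genes were. Leaving out any 1 of TG_TRF_7, TG_TRF_102, TG_TRF_104, TG_TRF_126, TG_TRF_220 and TG_TRF_321 ended that call (adjusted p up to 0.0864), as did a fit with ZT0 and ZT12 animals only (0.0635) and one with the astrocyte level as a covariate (0.0594). Leaving out NTG_TRF_202 made the NTG on TRF value a call (adjusted p = 0.00934), and leaving out NTG_ALF_134 or NTG_ALF_136 did so for NTG on ALF (0.039 and 0.0357). Mt1 stood at 0.75, 0.72, 0.62 and 0.62 in the same groups and Mt3 at 0.15, 0.34, 0.22 and 0.29, with none called. The values of the ALF groups rested in part on the 4 low animals. Without the 5 animals, Mt2 stood at 0.34 in TG on ALF and 0.50 in NTG on ALF, Mt1 at 0.18 and 0.36, and Mt3 at -0.18 and -0.12, with none called.

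At ZT6, in the middle of the light phase, Mt2 averaged 5883 ± 1664 normalized counts against 3215 ± 1536 at ZT0 (SD, n = 11 and 25), a log2 fold change of 0.97 ± 0.18 (limma, adjusted p = 8.84e-05). Mt1 averaged 9864 ± 2167 at ZT6 against 6287 ± 2578 at ZT0, a log2 fold change of 0.77 ± 0.17 (limma, adjusted p = 0.000923). Mt3 averaged 9862 ± 2262 at ZT6 against 8071 ± 2881 at ZT0 and did not pass (0.38 ± 0.16; limma, adjusted p = 0.0971). Thus 2 of 3 members were called higher, where 7.86% of all genes were called higher and 15.9% in either direction. Without the 5 animals the log2 fold changes were 0.81 for Mt2 and 0.58 for Mt1, both called by limma (adjusted p = 0.000468 and 0.00235), and 0.17 for Mt3 (0.365). With the short-gene level as a covariate they were 0.68 for Mt2 and 0.52 for Mt1, both called, and 0.075 for Mt3.

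At ZT18, in the middle of the dark phase and of the TRF feeding window, Mt1 averaged 10096 ± 1678 against 6287 ± 2578 at ZT0 (SD, n = 10 and 25; log2 0.80 ± 0.17; limma, adjusted p = 0.00238). Mt3 averaged 10683 ± 1960 against 8071 ± 2881 (0.51 ± 0.17; limma, adjusted p = 0.0419), and Mt2 4368 ± 843 against 3215 ± 1536 (0.57 ± 0.18; limma, adjusted p = 0.0375). All 3 were called higher, where 4.85% of all genes were called higher and 9.62% in either direction. The Mt2 call ended when 1 of 11 animals was left out (TG_TRF_7, TG_TRF_102, TG_TRF_330, TG_ALF_5, TG_ALF_16, TG_ALF_314, TG_ALF_329, NTG_TRF_8, NTG_ALF_1, NTG_ALF_325 and NTG_ALF_328, adjusted p up to 0.0841). The Mt3 call ended without any 1 of 15 (TG_TRF_7, TG_TRF_102, TG_TRF_321, TG_TRF_330, TG_ALF_5, TG_ALF_16, TG_ALF_314, TG_ALF_329, NTG_TRF_8, NTG_TRF_32, NTG_TRF_118, NTG_TRF_326, NTG_ALF_107, NTG_ALF_325 and NTG_ALF_328, adjusted p up to 0.102). Without the 5 animals Mt2 stood at 0.40 (adjusted p = 0.159) and Mt3 at 0.28 (0.151), and with the short-gene level as a covariate at 0.16 (0.563) and 0.067 (0.734). Mt1 was called in both, at 0.62 (limma, adjusted p = 0.00494) and 0.45 (0.0398).

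All 11 animals at ZT6 and all 10 at ZT18 carry numbers from 300 upward, which 2 animals at ZT0 and 1 at ZT12 also do. The labels do not say what the numbers stand for. With the number series (from 0, from 200 and from 300) as a factor, the ZT6 and ZT18 values ranged from 0.30 to 0.86 on the log2 scale and none of the 6 was called (adjusted p from 0.138 to 0.617), so these times and the number series cannot be told apart with these animals. The ZT12 values in that model were 0.95 for Mt2 and 0.70 for Mt1, both called.

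**Figure D2:**
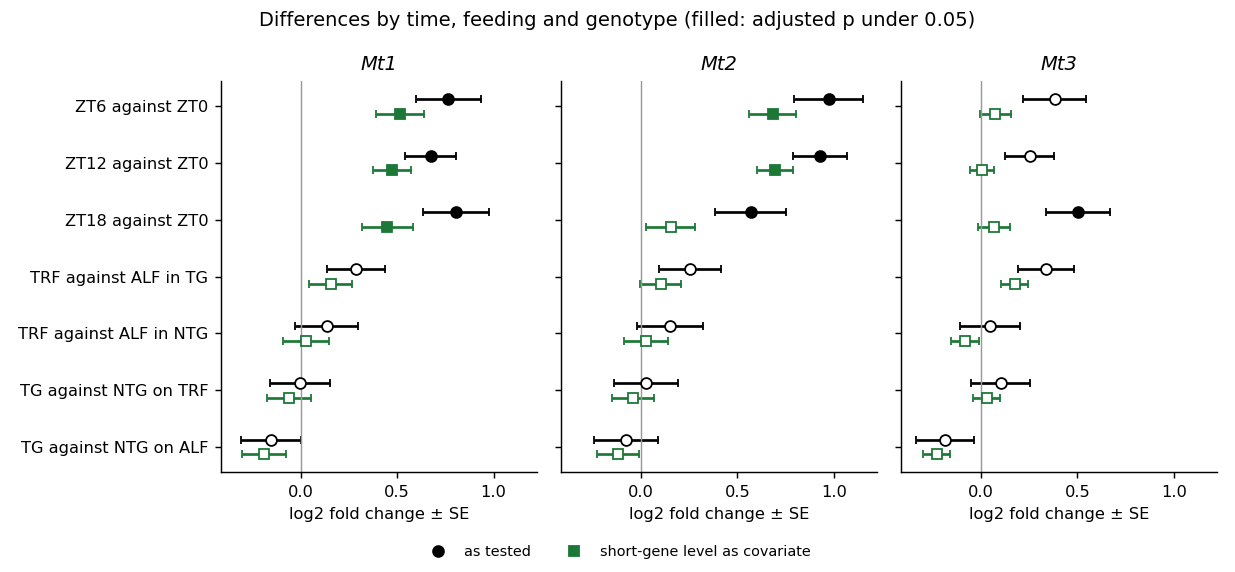
Log2 fold change ± SE (x axis) of each member in 7 comparisons (y axis), as tested (black circles) and with the short-gene level as a covariate (green squares), and filled where the adjusted p is under 0.05. Mt2 at ZT12 against ZT0 stands at 0.93 and at 0.69 with the covariate, Mt3 at 0.25 and 0.0049, and no feeding or genotype value is filled.

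Among the 3 later times no member was called (2.51% of all genes were between ZT12 and ZT6). The Mt2 values nevertheless stood lower at ZT18 than at ZT6 and ZT12, and those of Mt1 did not. Mt2 at ZT18 stood 0.36 ± 0.18 below its ZT12 level and 0.40 ± 0.21 below its ZT6 level on the log2 scale (limma, adjusted p = 0.214 and 0.272, where 11.2% and 8.04% of all genes were called). Mt1 differed from the same times by 0.13 ± 0.17 and 0.039 ± 0.20 (adjusted p = 0.684 and 0.939). With the short-gene level as a covariate, an alternative chosen after seeing the data, the Mt2 values were -0.54 and -0.53, both called by limma (adjusted p = 0.000989 and 0.00678).

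The ratio of Mt2 to Mt1 within a library, which a factor acting equally on both genes leaves unchanged, shows these same counts animal by animal. Its log2 averaged -0.985 ± 0.256 in the 25 animals of ZT0, -0.762 ± 0.176 in the 11 of ZT6, -0.731 ± 0.193 in the 23 of ZT12 and -1.213 ± 0.125 in the 10 of ZT18 (SD). The lowest ratio of all, -1.742, was that of NTG_ALF_107 at ZT0, which also had the lowest short-gene level. All 11 animals at ZT6 and 22 of 23 at ZT12 stood above the highest animal at ZT18, which had -1.03, and so did 15 of 25 at ZT0. ZT6 and ZT18 both consist of animals numbered from 300 upward. Over ZT0, ZT6, ZT12 and ZT18, the ratio of Mt1 to Mt3 averaged -0.374 ± 0.282, 0.006 ± 0.285, 0.051 ± 0.146 and -0.078 ± 0.182, with 15 of 25 animals at ZT0 below the lowest at ZT18. The ratio of Mt2 to Mt3 averaged -1.359 ± 0.333, -0.757 ± 0.229, -0.679 ± 0.264 and -1.291 ± 0.209 in the same order. Ratios were chosen for description after the levels had been seen and were not tested.

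**Figure D3:**
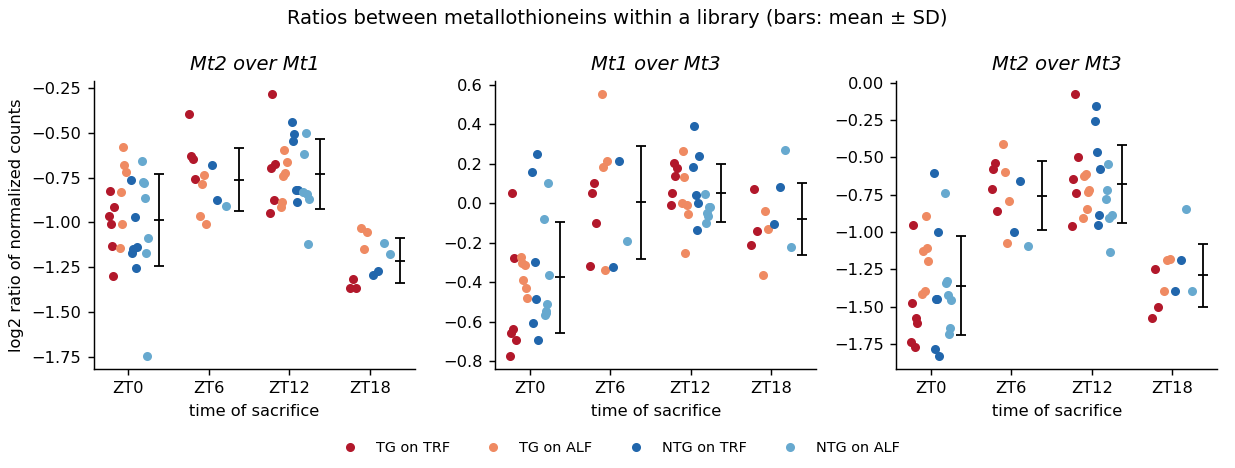
Log2 ratio of normalized counts (y axis) of Mt2 over Mt1, Mt1 over Mt3 and Mt2 over Mt3 within each library, by time of sacrifice (x axis), with points for animals coloured by group and bars for the mean ± SD of all animals at a time. The ratio of Mt2 to Mt1 at ZT18 runs from -1.37 to -1.03, below all 11 animals at ZT6.

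Feeding gave no call for any member. In TG, Mt1 had 4077, 9604 and 15596 normalized counts on TRF (lowest, median and highest of 18) and 1834, 8375 and 10855 on ALF (of 19). Mt2 had 1858, 4573 and 9957 on TRF and 1114, 4769 and 5694 on ALF, and Mt3 had 6084, 9939 and 14496 on TRF and 2558, 8315 and 13477 on ALF. The groups overlapped over most of their range, and the median of Mt2 was higher on ALF while its mean was higher on TRF. With time as a term in the model, the log2 fold changes for TRF against ALF in TG were 0.29 ± 0.15 for Mt1, 0.25 ± 0.16 for Mt2 and 0.34 ± 0.15 for Mt3 (limma, adjusted p = 0.316, 0.410 and 0.234). By limma 0 of 3 were called, where 0.54% of all genes were, and only Mt3 had an unadjusted p under 0.05 (0.0247); with voom weights none was called either. The 95% interval for Mt3 ran from 0.044 to 0.63 on the log2 scale, so an increase up to 1.54-fold lies within it. With the short-gene level as a covariate the values in TG were 0.15 for Mt1, 0.10 for Mt2 and 0.17 for Mt3, with none called (limma, adjusted p = 0.534, 0.713 and 0.203).

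In NTG the values for TRF against ALF were 0.13 ± 0.16 for Mt1, 0.15 ± 0.17 for Mt2 and 0.047 ± 0.16 for Mt3 (limma, adjusted p = 0.919, 0.914 and 0.974; 0 of 3 called and none under an unadjusted p of 0.05, with 0.0281% of genes called). Mt1 averaged 8876 ± 2671 on TRF and 7980 ± 2721 on ALF, Mt2 4929 ± 2084 and 4241 ± 1644, and Mt3 9057 ± 1930 and 9010 ± 2879 (SD, n = 16 each). Over both genotypes the values were 0.21, 0.20 and 0.19 for Mt1, Mt2 and Mt3 (adjusted p from 0.299 to 0.344, with 1.68% of genes called). The difference between the genotypes in the feeding contrast was 0.15 ± 0.22 for Mt1, 0.10 ± 0.23 for Mt2 and 0.29 ± 0.21 for Mt3 (limma, adjusted p = 0.996 for each, with 0% of genes called and no unadjusted p under 0.05 among the members).

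Within a time, the feeding values also stayed short of the threshold. At ZT12, before the TRF feeding window, Mt2 stood 0.42 ± 0.21 higher on TRF over both genotypes (unadjusted p = 0.0481; limma, adjusted p = 1, with 0.00701% of genes called). Mt1 stood at 0.33 ± 0.20 and Mt3 at 0.20 ± 0.20 at that time. At ZT18, inside the feeding window, the values were -0.29 ± 0.32 for Mt2, -0.088 ± 0.31 for Mt1 and -0.11 ± 0.30 for Mt3, with 5 animals on each diet. At ZT0 they were 0.18, 0.31 and 0.34 for Mt2, Mt1 and Mt3, and -0.21, -0.087 and -0.13 without the 5 animals of lowest correlation, 4 of which are ALF animals at ZT0. A test of feeding by time found no member (limma F test, adjusted p = 1 for each, with 0% of genes called). Within 1 genotype and 1 time, 0 of 18 member contrasts were called by limma, with log2 fold changes from -0.063 to 0.50 and no unadjusted p under 0.05. Of all genes, 0% were called in 5 of these 6 contrasts and 0.00701% in TG at ZT12.

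Genotype likewise gave no call. On TRF, TG against NTG stood at -0.0042 ± 0.16 for Mt1, 0.026 ± 0.17 for Mt2 and 0.10 ± 0.15 for Mt3 (limma, adjusted p = 0.995, 0.975 and 0.893, with 0.133% of genes called). On ALF the values were -0.16 ± 0.16, -0.076 ± 0.17 and -0.19 ± 0.15 (adjusted p = 0.997, 1 and 0.950, with 0.189% of genes called). Over both feedings they were -0.080 ± 0.11, -0.025 ± 0.12 and -0.043 ± 0.11 (adjusted p = 0.882, 0.970 and 0.941, with 0.449% of genes called). No genotype contrast of a member had an unadjusted p under 0.05 by limma or with voom weights. The 95% interval over both feedings ran from 0.81- to 1.10-fold for Mt1, 0.83- to 1.16-fold for Mt2 and 0.83- to 1.13-fold for Mt3. In the order of the 16 means by group and time, the lowest 4 of Mt1 and of Mt2 were the 4 groups at ZT0, and these 4 means lay within 1 SD of each other. The highest mean of Mt1 and of Mt3 was that of NTG on ALF at ZT18 (12300 and 12069, n = 2), and the highest of Mt2 that of TG on TRF at ZT6 (7155, n = 4).

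The 3 members varied together from animal to animal. Over 69 animals, Pearson's r of log2 values was 0.911 between Mt1 and Mt2, 0.858 between Mt1 and Mt3 and 0.758 between Mt2 and Mt3. After the means of the 16 groups and times were taken away it was 0.913, 0.875 and 0.838. The same libraries underlie each pair, and the correlations are given with no test.

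Much of that spread ran with the level of short genes. Over 69 animals, Mt3 correlated with the short-gene level at r = 0.891 and rho = 0.901, Mt1 at 0.740 and 0.615, and Mt2 at 0.730 and 0.559. Permutation p was 1e-05 for each, the smallest that 100000 permutations can give, and 2e-05 or less after adjustment over 6 relations. Animals were shuffled over all times and groups, so differences with time enter these p-values. Without the 2 animals farthest from the median, r was 0.908 for Mt3, 0.744 for Mt1 and 0.679 for Mt2. Within times r ran from 0.810 to 0.934 for Mt3, from 0.422 to 0.799 for Mt1 and from 0.408 to 0.814 for Mt2. The short-gene level itself averaged 9.32 ± 0.49, 9.60 ± 0.27, 9.53 ± 0.23 and 9.71 ± 0.11 over ZT0, ZT6, ZT12 and ZT18. By group it averaged 9.60 ± 0.29 in TG on TRF, 9.46 ± 0.35 in TG on ALF, 9.51 ± 0.27 in NTG on TRF and 9.38 ± 0.51 in NTG on ALF (SD). Its part in the differences between groups was not tested beyond the covariate values above.

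**Figure D4:**
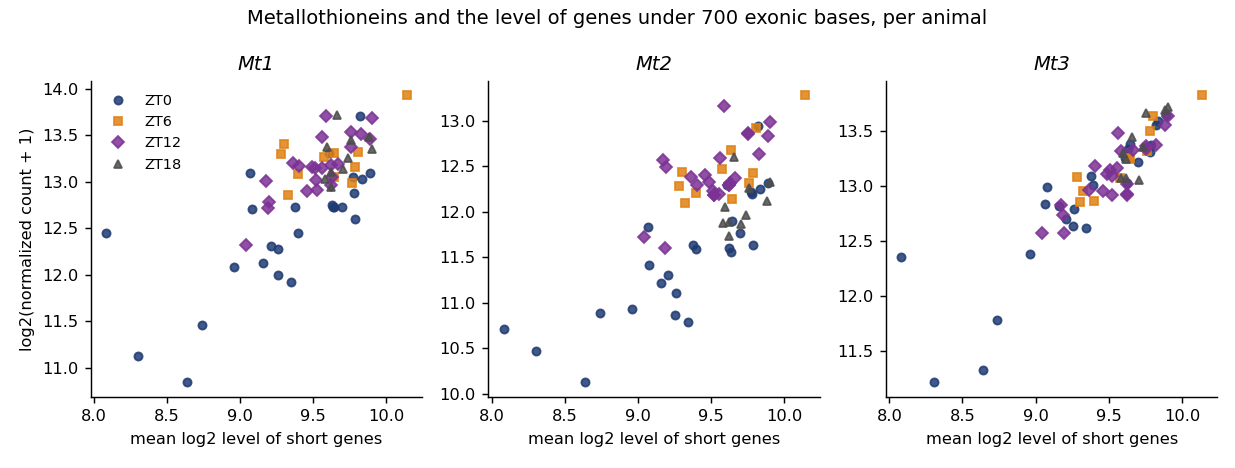
Log2(normalized count + 1) of each member (y axis) against the mean log2 level of short genes (x axis), with 1 point per animal and a symbol for each time of sacrifice. Mt3 lies close to a line (r = 0.891), and 4 animals at ZT0 stand at the low end, between 8.08 and 8.74 on the x axis.

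The genes whose levels were most like those of a member overlap only in part between members, with Atp5md among the 5 most alike of both Mt1 and Mt3. Besides Mt2, Mt1 was most like Mat2a (r = 0.896), which makes S-adenosylmethionine, Gstm5 (0.877), a glutathione transferase, Vps29 (0.872) of the retromer, and Atp5md (0.862), a small subunit of the ATP synthase. Mt2 was most like Mt1, then Psma7 (0.830) of the proteasome, Hnrnpdl (0.824), an RNA-binding protein, Hmgn3 (0.824), a nucleosome-binding protein, and Dctn6 (0.820) of dynactin. Mt3 was most like the cytochrome oxidase subunits Cox7c (0.948), Cox6c (0.944) and Cox8a (0.944), followed by Atp5md (0.942) and Cops9 (0.937) of the COP9 signalosome. On residuals of the 16 means, Gstm5 (0.897), Mt3, Atp5md (0.873) and Mat2a (0.868) followed Mt2 for Mt1. For Mt2, Mt3, Atp5l (0.836), Ndufa7 (0.832) and Cox7b (0.830) followed Mt1, and for Mt3 the list was Ubl5 (0.954), Cox8a (0.952), Cox7c (0.948), Atp5md (0.946) and Cox6c (0.944). The 50 genes most like Mt3 had a median exonic length of 868 bases, those most like Mt1 1165 and those most like Mt2 1246, against 3449 over all genes with a length. These correlations share libraries too.

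Bbs2, of the ciliary BBSome, stood at -0.040 ± 0.058 at ZT6, 0.032 ± 0.046 at ZT12 and -0.068 ± 0.059 at ZT18 against ZT0, and was not called by time (limma F test, adjusted p = 0.431). Nup93, a nuclear pore protein, was called by time (adjusted p = 0.000133), with 0.094 ± 0.058 at ZT6, 0.25 ± 0.046 at ZT12 and 0.022 ± 0.059 at ZT18. The other neighbours among the 3 genes on each side, Mt4, Gm39226, Gm39228 and Rpl10-ps5, were not analysed here.

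Mtf1, which encodes the metal-sensing transcription factor, averaged 1237 ± 183, 1240 ± 86.4, 1229 ± 115.1 and 1237 ± 78.6 normalized counts over ZT0, ZT6, ZT12 and ZT18 (SD) and was not called by time (limma F test, adjusted p = 0.949). Slc30a1, the plasma-membrane zinc exporter ZnT1 and another MTF1 target, was higher at ZT6 than at ZT0 (1760 ± 190 and 1435 ± 208; log2 0.29 ± 0.061; limma, adjusted p = 0.000524). At ZT18 it was lower (1152 ± 103 against 1435 ± 208; -0.31 ± 0.062; limma, adjusted p = 0.00116). At ZT12 it stood at -0.0052 ± 0.048.

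Of 9 zinc exporters measured, 2 rose and 1 fell at ZT6, 1 rose and 1 fell at ZT12, and 1 fell at ZT18 against ZT0, with medians of 0.10, 0.0048 and 0.010 on the log2 scale. Beside Slc30a1, Slc30a5 rose at ZT6 (0.17 ± 0.042) and ZT12 (0.11 ± 0.033) and Slc30a2 fell at both (-0.31 ± 0.11 and -0.38 ± 0.083). Of 13 zinc importers, 1 rose and 2 fell at ZT6, 1 fell at ZT12, and 1 rose and 1 fell at ZT18, with medians of -0.075, -0.063 and -0.052, while the medians of all genes lay between 0.0028 and 0.0063. Of all genes, 7.86% were called higher and 8.06% lower at ZT6, 14.4% and 13.6% at ZT12, and 4.85% and 4.78% at ZT18. Slc39a10 fell at ZT6 (-0.25 ± 0.077) and ZT12 (-0.32 ± 0.060), and at ZT6 Slc39a7 fell (-0.15 ± 0.053) and Slc39a6 rose (0.15 ± 0.054). At ZT18 Slc39a2 rose (0.56 ± 0.19) and Slc39a9 fell (-0.15 ± 0.053). None of the 22 zinc transporters was called for TRF against ALF in TG, where 0.54% of all genes were. With the number series as a factor, Slc30a1 was the one zinc transporter named for ZT6 that was still called, and none of those named for ZT18 was (Slc30a1 there at -0.12, adjusted p = 0.537). Slc39a10 and Slc39a7 at ZT6 and Slc39a2 and Slc39a9 at ZT18 were not called without the 5 animals (limma, adjusted p from 0.0586 to 0.171). Slc30a2 and Slc39a10 at ZT6 and Slc39a2 and Slc39a9 at ZT18 were not called with the short-gene level (0.0511 to 0.495). The ZT12 call of Slc30a5 was lost with array weights (adjusted p = 0.0621) and with the astrocyte level (0.062).

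Of 16 genes of copper handling, 1 rose at ZT6, 1 rose and 1 fell at ZT12, and 4 rose at ZT18 against ZT0, with medians of 0.087, 0.033 and 0.090. Beside these, 7.86% of all genes were called higher and 8.06% lower at ZT6, 14.4% and 13.6% at ZT12, and 4.85% and 4.78% at ZT18. Ccs, the copper chaperone of superoxide dismutase, rose at ZT12 (0.29 ± 0.075; limma, adjusted p = 0.00291) and ZT18 (0.38 ± 0.098; 0.011). Atox1, a small chaperone that hands copper to the ATPases, rose at ZT18 (0.77 ± 0.23; 0.0235), as did Cox17 (0.41 ± 0.14) and Slc31a2 (0.26 ± 0.090). Atp7a, a copper-exporting ATPase, fell at ZT12 (-0.36 ± 0.13; 0.0257), a call lost without the 5 animals (-0.23, adjusted p = 0.213) and with the short-gene level (-0.32, 0.0752). Cox11 was called at ZT6 (0.22 ± 0.079; 0.0499) and was not called in 6 alternatives, among them the number series (0.47, adjusted p = 0.0556), the 5 animals left out (0.17, 0.118) and the short-gene level (0.12, 0.234). At ZT18, with the short-gene level as a covariate none of the 4 was called, at 0.16 for Ccs, 0.14 for Atox1, 0.058 for Cox17 and 0.11 for Slc31a2 (limma, adjusted p from 0.207 to 0.756). With the number series as a factor, and likewise without the 5 animals, Ccs alone of the 4 was called. No copper gene was called for feeding in TG, where 0.54% of all genes were.

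Genes known to be induced by glucocorticoid differed with time as well. The shares of all genes called higher and lower were 14.4% and 13.6% at ZT12, 7.86% and 8.06% at ZT6, and 4.85% and 4.78% at ZT18. At ZT12 against ZT0, 16 of 24 rose and 1 fell (median 0.31), led by Hif3a (1.89 ± 0.17), Tsc22d3 (0.83 ± 0.084), Klf15 (0.53 ± 0.057), Fkbp5 (0.53 ± 0.061), Klf9 (0.26 ± 0.034) and Plin4 (1.72 ± 0.22), while Dusp1 fell (-0.49 ± 0.11). At ZT6, 0 of 24 rose and 6 fell (median 0.031): Fam107a (-0.39 ± 0.087), Mertk (-0.25 ± 0.062), Cdkn1a (-0.65 ± 0.19), Sult1a1 (-0.48 ± 0.14), Bcl6 (-0.24 ± 0.078) and Gjb6 (-0.23 ± 0.079). None of these 6 was called with the number series as a factor (limma, adjusted p from 0.0642 to 0.903), and Cdkn1a stood at 0.10. At ZT18, Plin4 (1.21 ± 0.29), Fkbp5 (0.30 ± 0.079), Tsc22d3 (0.33 ± 0.11) and Klf15 (0.22 ± 0.074) rose, and Dusp1 (-0.59 ± 0.14) and Cdkn1a (-0.60 ± 0.20) fell (median -0.0018). With the number series as a factor Dusp1 alone of these 6 was called at ZT18, and Cdkn1a stood at 0.16. Tsc22d3, Klf15 and Cdkn1a were not called at ZT18 without the 5 animals (adjusted p = 0.149, 0.121 and 0.0648), and with the short-gene level Fkbp5, Tsc22d3 and Klf15 were not (0.0575, 0.339 and 0.385). For TRF against ALF in TG, 4 of 24 rose and none fell (median 0.25, against 0.0021 over all genes, of which 0.196% were called higher and 0.344% lower): Sult1a1 (0.63 ± 0.13), Fkbp5 (0.33 ± 0.070), Fam107a (0.34 ± 0.078) and Gjb6 (0.29 ± 0.071). All 4 calls were lost with no term for time, with ZT0 and ZT12 animals only, and with the level of myelin genes as a covariate, where 2, 0 and 5 of all genes were called. In that order the log2 fold changes were 0.62, 0.63 and 0.58 for Sult1a1 and 0.32, 0.40 and 0.30 for Fkbp5. For Fam107a they were 0.33, 0.37 and 0.31, and for Gjb6 0.28, 0.31 and 0.29. Sult1a1 alone was called without the 5 animals. With the choroid plexus level as a covariate, Fam107a (0.31) and Gjb6 (0.29) were not called (limma, adjusted p = 0.0755 and 0.0769). Nr3c1, the glucocorticoid receptor, fell at ZT12 (-0.23 ± 0.055; limma, adjusted p = 0.000902).

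Across 69 animals, the mean log2 level of those 24 genes correlated with Mt2 at r = 0.539 and rho = 0.562 (permutation p = 3e-05 and 1e-05), with Mt1 at 0.451 and 0.458 (0.00019 and 0.00012) and with Mt3 at 0.263 and 0.270 (0.0288 and 0.0243). Adjusted over the 6 relations with short genes and this list, the p of r were 4.5e-05, 0.000228 and 0.0288. Here too animals were shuffled over all times and groups, so the differences with time given above enter these p-values. Without the 2 animals farthest from the median, r was 0.562, 0.454 and 0.263. Within ZT0, ZT6, ZT12 and ZT18, r for Mt2 was 0.638, 0.392, 0.373 and 0.408, for Mt1 0.657, 0.081, 0.224 and 0.532, and for Mt3 0.427, 0.482, 0.069 and 0.288. On residuals of the 16 means, r was 0.464 for Mt2, 0.415 for Mt1 and 0.247 for Mt3. With the short-gene level also taken out, r was 0.541 for Mt2, 0.421 for Mt1 and 0.200 for Mt3.

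Of 19 targets of the oxidant-responsive factor NRF2, 3 rose at ZT6, 2 rose and 1 fell at ZT12, and 3 rose at ZT18 against ZT0, with medians of 0.040, 0.059 and 0.085. In either direction, 15.9% of all genes were called at ZT6, 27.9% at ZT12 and 9.62% at ZT18. Counted in either direction, the NRF2 calls at ZT6 and ZT12 do not exceed those shares. All NRF2 calls at ZT6 and ZT18 were higher, where 7.86% and 4.85% of all genes were called higher. Gsr, glutathione reductase, rose at all 3 times (0.26 ± 0.049, 0.24 ± 0.039 and 0.16 ± 0.050). Gclc, which catalyses the first step of glutathione synthesis, rose at ZT6 (0.16 ± 0.037) and ZT12 (0.15 ± 0.029). Prdx1 rose at ZT6 (0.25 ± 0.073), Slc7a11, the cystine carrier, fell at ZT12 (-0.31 ± 0.10), and Txnrd1 and Gclm rose at ZT18 (0.18 ± 0.042 and 0.15 ± 0.051). Of 11 genes of STAT3 and the acute phase, 1 rose and 2 fell at ZT6 and 1 rose and 3 fell at ZT12, with none called at ZT18. Stat3 fell at ZT6 and ZT12 (-0.16 ± 0.046 and -0.16 ± 0.036), as did the receptor subunit Il6st (-0.25 ± 0.077 and -0.25 ± 0.061), Osmr fell at ZT12 (-0.28 ± 0.078), and Cebpb rose at both (0.47 ± 0.15 and 0.33 ± 0.12). None of these NRF2, STAT3 or acute-phase genes was called for feeding in TG, where 0.54% of all genes were. With the number series as a factor, of the genes named here for ZT6 only Gsr was still called, and of those named for ZT18 only Txnrd1. Gclm stood at -0.056 there. Both without the 5 animals and with the short-gene level, the ZT12 calls of Slc7a11 (-0.15 and -0.18; limma, adjusted p = 0.318 and 0.161) and of Cebpb (0.18 and 0.17; 0.179 and 0.232) were lost. So were the ZT6 calls of Prdx1 (adjusted p = 0.0571 and 0.0636) and Il6st (0.0569 and 0.103), and the ZT18 call of Gsr (0.0502 and 0.100). With the short-gene level Cebpb was not called at ZT6 either (0.27; adjusted p = 0.143), and with equal totals Stat3 was not (-0.13; 0.0816).

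Markers of tissue makeup give the setting of these values. For the counts that follow, the shares of all genes called higher and lower were 7.86% and 8.06% at ZT6 and 14.4% and 13.6% at ZT12. At ZT18 they were 4.85% and 4.78%, and for TRF against ALF in TG 0.196% and 0.344%. The mean log2 level of 16 astrocyte markers was 12.51 ± 0.098, 12.46 ± 0.054, 12.45 ± 0.091 and 12.47 ± 0.15 over ZT0, ZT6, ZT12 and ZT18 (SD). Their median log2 difference at ZT12 against ZT0 was -0.040, with 1 of 16 called higher and 4 called lower. Choroid plexus markers, which show how much plexus came along in the dissection, varied far more, with levels from 5.28 to 11.06 over animals. Their median was -0.58 at ZT12 against ZT0 and -1.37 for TRF against ALF in TG, with 0 of 21 called in either. With that level as a covariate, the ZT12 against ZT0 values were 0.93 for Mt2 and 0.66 for Mt1, both called. For ependyma the median was 0.47 at ZT6 with 2 of 11 called higher, and 0.42 at ZT18 with 1 of 11 called higher and all 11 above 0. For endothelium it was -0.21 at ZT12, with 3 of 14 called higher and 7 called lower. For meninges and fibroblasts it was -0.34 at ZT6, with 1 of 10 called lower. At ZT18 it was -0.54 for that list, with 3 of 10 called lower and 9 below 0. Myelin and oligodendrocyte genes had a median of -0.20 for TRF against ALF in TG, with 1 of 14 called lower. The part of ependyma, endothelium and meninges in the members' values was not tested. That of astrocytes was not tested beyond the fits with their level as a covariate.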

How the data were processed

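Hippocampal poly-A RNA of 70 libraries was analysed. The submitters' processing notes name the build GRCm38 and the tools HISAT2, featureCounts and DESeq2, with versions not given in the sources used here, and the labels' protocols name Trimmomatic. The deposited values are a signal, the authors' normalized counts: each library's reads divided by 1 factor, so that all values came out as whole multiples of 1 step within a tolerance of 0.01 step. The lowest mean of any listed gene was 40.9, so genes of low count were not analysed here.

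Groups came from the labels. One NTG animal on TRF has 2 libraries under 1 number, which were taken as 1 animal and averaged, which left 69. Values were tested as log2(value + 1) with limma 3.58.1 (R 4.3.3; intensity trend, robust variances, 2-sided) over 14260 genes, with Benjamini-Hochberg adjustment and a threshold of 0.05. One model had 4 group means and time as a factor, and another the 16 means of group and time, used for all contrasts within a time or group. Nothing states whether animals shared a litter or RNA batch, and p-values measure the spread between animals. Script steps were tested on simulated data. Permutation tests and sequence work used Python 3.11.15, numpy 2.4.6 and scipy 1.17.1.

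The genes named were the members, 3 neighbours on each side in RefSeq order, up to 6 called genes of smallest p per list, and the 5 genes most like each member. Dusp1 at ZT12, Nr3c1 and the tissue levels were named beside these after their values had been seen. The members and lists were chosen with earlier results of these data known. The alternative with the short-gene level was chosen after seeing the data. The other alternatives were a pseudocount of 10, filters on low values, equal totals, quantile normalization, array weights, voom weights on recovered reads, no time term, fewer times, the animal number, 3 tissue levels, the handling of the repeat library, and leaving out animals.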

Additional observations from a re-analysis of the deposited data

Results flagged for a closer look

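In sets of 4 to 10 animals of 1 group and time, 2 of 30 had an animal far from the others, by the share of the whole range that separates it from its nearest neighbour. Chance gives about 1 in 20. In TG on ALF at ZT12, TG_ALF_109 had the lowest Mt2 value, 3381.8 normalized counts, against 4665.2 in the next animal and 5086.2 in the highest (n = 6, share 0.753). Its short-gene level was 9.04, the lowest at ZT12, and its Mt1 and Mt3 values were 5115 and 6082, also the lowest at that time.

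In NTG on TRF at ZT0, NTG_TRF_202 had the highest Mt2 value, 7906.7 normalized counts, against 3653.0 in the next animal and 1765.1 in the lowest (n = 6, share 0.693). Its Mt1 and Mt3 values were 13404 and 12014, and its short-gene level was 9.82. Without it, Mt2 at ZT12 against ZT0 in NTG on TRF was 1.28 on the log2 scale and was called by limma (adjusted p = 0.00934).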

How the results depend on the processing

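No paired analysis was possible because no number is shared between groups. Mt1 and Mt2 at ZT6 and ZT12, and Mt1 at ZT18, were called against ZT0 in all 69 refits that left out 1 animal. The pseudocount, filters on low values, equal totals, voom weights, the choroid plexus and myelin levels and the use of only 1 of the repeated libraries changed no call and no sign of a member. Log2 fold changes that lost a call or changed sign follow, and for each the cause was not tested. With quantile normalization, TG against NTG on TRF was 0.017 for Mt1. With array weights, ZT18 against ZT0 was 0.40 for Mt2 and 0.30 for Mt3 (neither called), the time test of Mt3 gave an adjusted p of 0.102, TRF against ALF was -0.056 for Mt3 in NTG and, at ZT0, -0.057 for Mt1 and -0.18 for Mt2, TG against NTG on TRF was -0.0024 for Mt2, and ZT12 against ZT0 in NTG on ALF was -0.024 for Mt3. With no time term, TG against NTG was 0.038 for Mt1 on TRF, 0.032 for Mt2 on ALF, and 0.043 for Mt2 and 0.0031 for Mt3 over both. With ZT0 and ZT12 only, Mt2 on TRF was -0.061 for TG against NTG. With the repeated libraries as separate samples, Mt1 was 0.00080 in that contrast.

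With the number series as a factor, ZT6 against ZT0 was 0.48 for Mt1 and 0.86 for Mt2, ZT18 against ZT0 was 0.52, 0.45 and 0.42 for Mt1, Mt2 and Mt3, none called, and the time test of Mt3 gave an adjusted p of 0.187. There ZT12 against ZT6 was 0.22 for Mt1 and 0.097 for Mt2, ZT18 against ZT12 -0.19 for Mt1, TRF against ALF in NTG -0.076 for Mt3, TG against NTG on TRF 0.0038 for Mt1, and ZT6 against ZT0 0.078 for Slc39a7, 0.10 for Cdkn1a and 0.032 for Stat3, while ZT18 against ZT0 was 0.16 for Cdkn1a and -0.056 for Gclm. With the astrocyte level, Mt3 at ZT18 was 0.47 and not called, its time test gave an adjusted p of 0.0655, its ZT12 value in TG on TRF was -0.054, and TG against NTG over both feedings was 0.025 for Mt2. Without the 5 animals, ZT18 against ZT0 was 0.40 for Mt2 and 0.28 for Mt3, the time test of Mt3 gave 0.152, its TRF against ALF value in NTG was -0.11, its ZT12 values in TG on ALF and NTG on ALF were -0.18 and -0.12, and TRF against ALF at ZT0 was -0.087, -0.21 and -0.13 for Mt1, Mt2 and Mt3.

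With the short-gene level, ZT18 against ZT0 was 0.16 for Mt2 and 0.067 for Mt3 (neither called), and the time test of Mt3 gave 0.753. ZT12 against ZT6 was 0.011 for Mt2, ZT18 against ZT6 -0.067 for Mt1 and -0.0077 for Mt3, and ZT18 against ZT12 -0.025 for Mt1. TRF against ALF was -0.085 for Mt3 in NTG, -0.031 for Mt2 at ZT0, and -0.059 for Mt1 and -0.038 for Mt3 at ZT6. TG against NTG on TRF was -0.042 for Mt2, and ZT12 against ZT0 was -0.12 for Mt3 in TG on TRF and -0.090 in NTG on ALF.

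Calls were gained for Mt2 at ZT12 against ZT0 in NTG on TRF with array weights (1.09), without the 5 animals (1.02) and with the short-gene level (0.92), for Mt1 in TG on TRF with array weights (0.88), and for Mt2 at ZT18 against ZT12 with array weights (-0.42) and the short-gene level (-0.54), and at ZT18 against ZT6 with the short-gene level (-0.53). Leaving out 1 animal at a time gave ranges of 0.50 to 0.63 for Mt2 and 0.44 to 0.55 for Mt3 at ZT18, and an adjusted p of 0.0215 to 0.0746 for the time test of Mt3. TG against NTG ran from -0.050 to 0.071 for Mt1 and -0.028 to 0.12 for Mt2 on TRF, from -0.14 to 0.0036 for Mt2 on ALF, and from -0.056 to 0.018 for Mt2 and -0.096 to 0.0022 for Mt3 over both. TRF against ALF ran from -0.063 to 0.098 for Mt3 in NTG and, at ZT6, from -0.069 to 0.11 for Mt1 and -0.045 to 0.18 for Mt3. Mt1 at ZT18 against ZT6 ran from -0.012 to 0.097, and Mt2 at ZT12 against ZT6 from -0.094 to 0.022. At ZT6 and ZT18 the NTG groups hold 1 or 2 animals each, which limits every value there.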
